A study of Rattus norvegicus with 6 samples.

Results

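The gene set held 31 rat genes of fatty acid oxidation and of the PPAR-alpha programme, chosen by name. The probes were those of the arrays whose RefSeq accession belonged to 1 of these genes, which gave 52 probes of 61657 other than controls. All 31 genes had a probe, of 15284 genes on the array. They comprise 5 peroxisomal enzymes, 1 enzyme of both compartments, 8 enzymes of mitochondrial beta-oxidation, 4 proteins of the mitochondrial entry route, 2 further acyl-CoA thioesterases, 4 genes of fatty acid uptake, binding and storage, and 7 regulators and secreted products.

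Liver RNA came from 6 male Sprague-Dawley (Crl:CD(SD)) rats, bought at an age of 5 weeks and kept on a basal diet. The phenolphthalein group (3 animals) received 1000 mg/kg/day of this indicator dye, once sold as a laxative, and the corn oil group (3 animals) received the oil. The route and the vehicle of the dye are not given in the sources used here, and the sources disagree on duration, giving a sampling time of 28 days in one place and treatment over 9 weeks in another. Each animal had 1 single-colour array, and all phenolphthalein arrays lay on a slide and scan apart from all corn oil arrays, so treatment cannot be told apart from slide or scan. Hepatocyte markers were as the liver label says, with 8 of 8 well measured and a median difference of 0.05 log2 units between the groups, while of 5 fat cell markers on the array Adipoq and Lep were too dim to be tested and Cfd, Adrb3 and Retn were tested, with a median difference of -0.11.

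PPAR-alpha is a nuclear receptor that binds fatty acids in hepatocytes and, as a dimer with the retinoid X receptor, switches on genes of fatty acid uptake, activation, oxidation and ketone formation, most of all in fasting. Very long and branched acyl chains are shortened in peroxisomes, whereas medium and long chains enter mitochondria through the carnitine shuttle and are cut there by the acyl-CoA dehydrogenases, the trifunctional protein and a thiolase. In rats and mice, fibrates and other PPAR-alpha ligands raise the peroxisomal enzymes of this programme and enlarge the peroxisome compartment.

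The comparison asked whether these transcripts differed between phenolphthalein and corn oil livers. None of the 30 tested genes was called at an adjusted p under 0.05, in limma with Benjamini-Hochberg adjustment over all 11434 tested genes. Of all tested genes 0.0612% were called, 0.0525% higher and 0.00875% lower with phenolphthalein. The smallest adjusted p among the 30 was 0.208, for Ech1. Their means were mostly lower: 23 of 30 were lower and 7 higher with phenolphthalein, beside 48.2% of all tested genes lower. That count depended on the scaling, with 17 lower and 13 higher after a shift by each array's median (the median shift). It was 18 lower and 12 higher with normexp background correction, and it ran from 19 to 25 lower without 1 array. The median shift moves all genes of an array by the same amount. The share of all tested genes lower was counted at the main scaling only, so these counts have no such share beside them. The median log2 fold change was -0.12, against 0.01 over all tested genes. After a median shift it was -0.045, against 0.09 over all tested genes, and with normexp -0.064, against 0.02. It came to -0.03 when corn oil replicate 1 was left out and to -0.08 when phenolphthalein replicate 2 was. At an unadjusted p under 0.05 there were 3 lower (Ech1, Eci1 and Hadha) and 0 higher, where 8.11% of all tested genes were lower and 7.16% higher. The groups did not overlap for 6 genes: every phenolphthalein array was lower for 5 (Ech1, Eci1, Hadha, Hadhb and Acadm) and higher for 1 (Fabp1), where 11% and 12.2% of all tested genes did so. The 95% interval of the log2 fold change lay within 1 unit of 0, a 2-fold change, for 22 of the 30 genes, and within 0.5 units for 13. For those genes a larger shift lay outside the interval, while the intervals of the other 8 reached past the wider limit. Leaving out 1 array moved the log2 fold change by over 1.5 times for 23 of the 30 genes, the exceptions being Acot1, Acot2, Creb3l3, Ech1, Eci1, Hadha and Hadhb.

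Markers of other liver cells differed between the groups too. Macrophage markers had lower means with phenolphthalein in 10 of 10, with a median log2 fold change of -0.64, and lymphocyte markers in 5 of 5, with a median of -0.38. Bile duct markers had higher means in 3 of 4, with a median of 0.31 and a log2 fold change of 0.92 for Spp1. Stellate cell markers had lower means in 5 of 6, with a median of -0.14, and endothelial markers in 4 of 4, with a median of -0.08. None of these markers was called in limma over all genes, and the part of these cells in the values of the fatty acid genes was not tested.

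**Figure D1:**
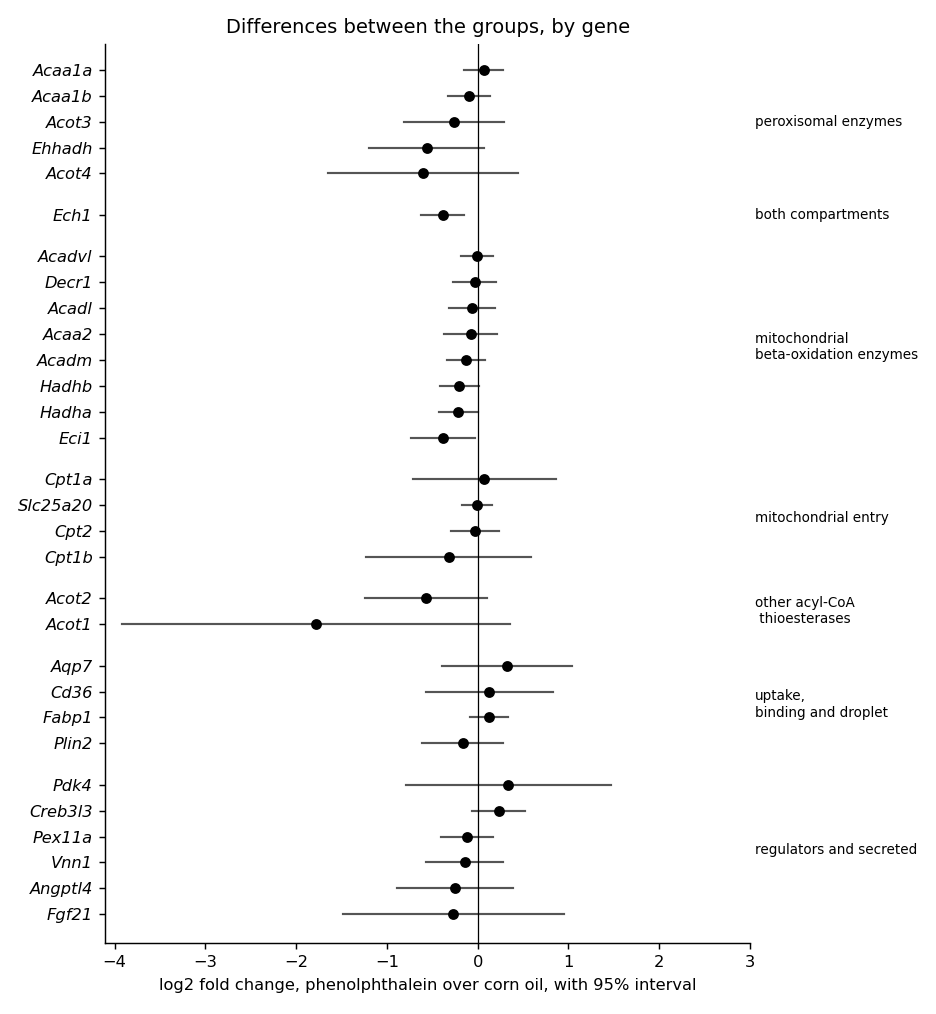
Log2 fold change of each of the 30 tested genes, phenolphthalein over corn oil, with its 95% interval from limma (n = 3 arrays per group), grouped by role and ordered within each group. The interval lay wholly below 0 for Ech1, Eci1 and, at its edge, Hadha, and it was widest for Acot1.

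All levels below are log2 signals relative to the array's 75th percentile, in the order of replicates 1 to 3. They compare arrays for 1 probe at a time, since probes differ in brightness. Of the 52 probes, 48 were well above background on all 6 arrays. The exceptions were both probes of Ucp3, a mitochondrial carrier of muscle and brown fat, which were well above background on 0 of 6 arrays, and 2 of the 3 probes of Cpt1b. Ucp3 was therefore not tested. In whole liver RNA, fewer cells of a type and less RNA per cell cannot be told apart.

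Among the peroxisomal enzymes, Ehhadh, the bifunctional enzyme that hydrates and dehydrogenates enoyl-CoA and a well-known PPAR-alpha target, read 3.68, 3.63 and 3.33 on the phenolphthalein arrays, against 4.63, 4.05 and 3.65 on the corn oil arrays. Phenolphthalein replicate 1 stood just above corn oil replicate 3, and corn oil replicate 1 was well above all the others. The log2 fold change was -0.56 ± 0.26 (SE, n = 3 per group), with a limma adjusted p of 0.366, and it was -0.30 when corn oil replicate 1 was left out. Acaa1a and Acaa1b, the rat peroxisomal 3-ketoacyl-CoA thiolases A and B, of which the B form is the one known to be raised by peroxisome proliferators, differed little between the groups. Acaa1a read 8.34, 8.11 and 8.30 with phenolphthalein, against 8.21, 8.16 and 8.18 with corn oil, a log2 fold change of 0.07 ± 0.09 (SE). Acaa1b read 7.89, 7.76 and 7.79 with phenolphthalein, against 8.05, 7.89 and 7.79 with corn oil, a log2 fold change of -0.10 ± 0.10 (SE). On these probes, the brightest of each gene, the groups overlapped for both thiolases. Each has 3 probes, and they are close paralogs whose probes may share signal. The 3 Acaa1a probes ran from -0.12 to 0.07 log2 units and the 3 Acaa1b probes from -0.25 to -0.10. On the dimmest Acaa1b probe the groups did not overlap. It read 6.51, 6.40 and 6.58 with phenolphthalein, against 6.88, 6.71 and 6.64 with corn oil.

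Ech1, which isomerises dienoyl-CoA from unsaturated fatty acids and works in peroxisomes and mitochondria, had the smallest p of the set. It read 5.97, 5.80 and 5.95 with phenolphthalein, against 6.43, 6.23 and 6.22 with corn oil. The phenolphthalein arrays lay below every corn oil array. The log2 fold change was -0.39 ± 0.10 (SE, n = 3 per group), with an unadjusted p of 0.00706 and a limma adjusted p of 0.208, and without 1 array at a time it ran from -0.42 to -0.32.

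All 8 mitochondrial beta-oxidation enzymes had a lower mean with phenolphthalein, with log2 fold changes from -0.38 (Eci1) to -0.004 (Acadvl), beside 48.2% of all tested genes lower. After a median shift 4 of the 8 were lower, with Acadvl, Acadl, Acaa2 and Decr1 above 0, and with normexp 7 of the 8. That shift raised all genes alike: the median of the 8 was -0.024 after it, against 0.09 over all tested genes. Before it, the median was -0.10, against 0.01. The phenolphthalein arrays lay apart and lower for 4 of the 8, beside 11% of all tested genes. Eci1, the enoyl-CoA isomerase needed for unsaturated chains, read 6.46, 6.67 and 6.77 with phenolphthalein, against 7.23, 6.78 and 7.04 with corn oil. Corn oil replicate 2 was only just above phenolphthalein replicate 3. The log2 fold change was -0.38 ± 0.14 (SE, n = 3 per group), with an unadjusted p of 0.038 and a limma adjusted p of 0.304.

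Hadha and Hadhb code for the alpha and beta subunits of the mitochondrial trifunctional protein, which carries out the last steps of each cycle on long chains. Hadha read 3.88, 3.96 and 4.0 with phenolphthalein, against 4.26, 4.05 and 4.18 with corn oil, a log2 fold change of -0.21 ± 0.09 (SE). Hadhb read 2.99, 3.09 and 3.13 with phenolphthalein, against 3.39, 3.22 and 3.20 with corn oil, a log2 fold change of -0.20 ± 0.09 (SE). Both subunits thus lay slightly lower on every phenolphthalein array, with limma adjusted p-values of 0.327 and 0.344. The other probes of Hadha did not share this: their log2 fold changes were 0.09 and -0.10, and the groups overlapped.

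The chain-length-specific acyl-CoA dehydrogenases catalyse the opening step. Acadm, for medium chains, read 7.27, 7.23 and 7.28 with phenolphthalein, against 7.52, 7.31 and 7.33 with corn oil, a log2 fold change of -0.13 ± 0.09 (SE). The groups did not overlap, by a narrow margin. Acadl, for long chains, read 7.28, 7.29 and 7.55 with phenolphthalein, against 7.38, 7.40 and 7.51 with corn oil, and Acadvl, for very long chains, read 5.17, 5.24 and 5.27, against 5.28, 5.20 and 5.21 with corn oil. Their log2 fold changes were -0.06 ± 0.10 and -0.004 ± 0.072 (SE), with the groups overlapping. Acaa2, the mitochondrial thiolase, differed by -0.08 ± 0.12 log2 units (SE) and Decr1, the dienoyl-CoA reductase, by -0.03 ± 0.10. Acaa2 was nearly flat across the phenolphthalein arrays (6.94, 6.95 and 6.92) and more scattered across the corn oil arrays (7.16, 6.77 and 7.11).

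The entry route showed no difference beyond the spread between animals. Cpt1a, the liver carnitine palmitoyltransferase that sets the rate of entry, read 4.01, 4.56 and 4.67 with phenolphthalein, against 4.99, 4.0 and 4.03 with corn oil. Both groups held high and low animals, and the log2 fold change was 0.07 ± 0.32 (SE). Slc25a20, the carnitine-acylcarnitine carrier of the inner membrane, was the steadiest gene of the set, with 4.48, 4.50 and 4.47 on the phenolphthalein arrays and 4.52, 4.53 and 4.43 on the corn oil arrays. Its log2 fold change was -0.01 ± 0.07 (SE), with a 95% interval from -0.18 to 0.16. Cpt2, the inner-membrane transferase, differed by -0.03 ± 0.11 log2 units (SE) and Cpt1b, the muscle form, by -0.32 ± 0.37.

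**Figure D2:**
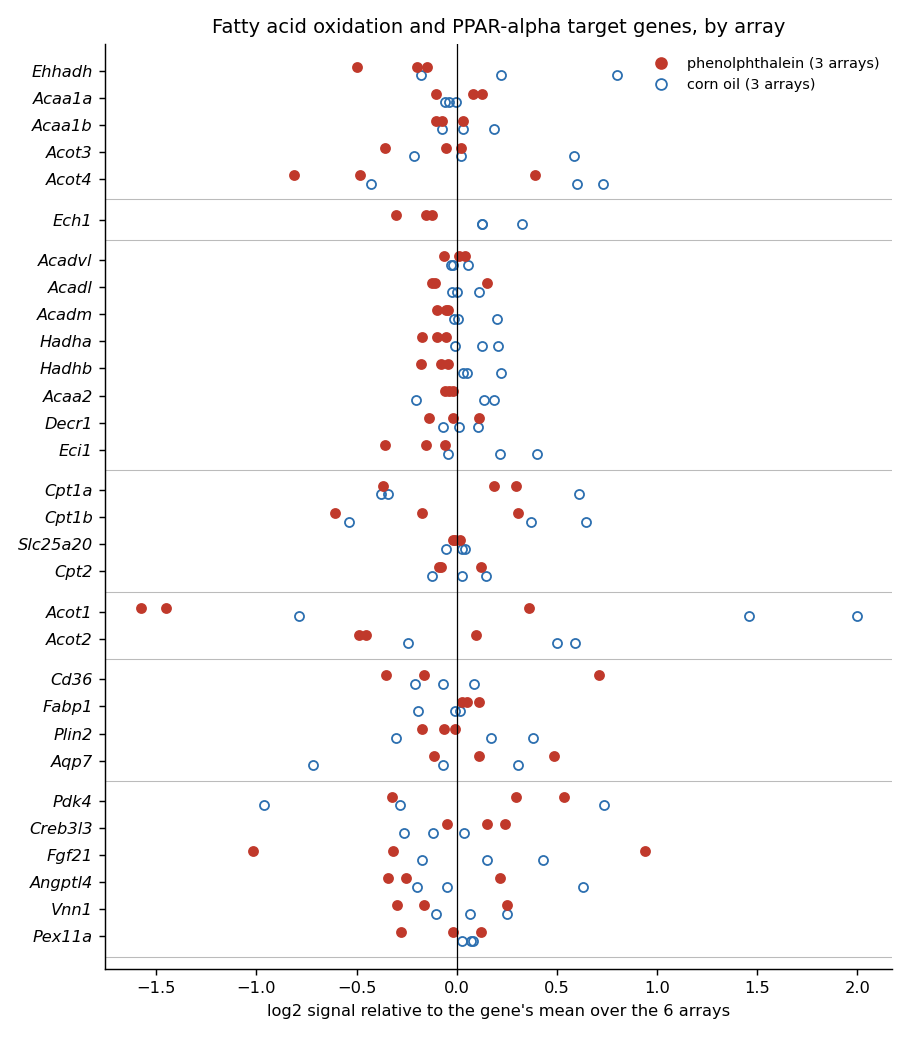
Log2 signal of each of the 30 tested genes on each of the 6 arrays, relative to the gene's own mean over the arrays, with filled points for the 3 phenolphthalein animals and open points for the 3 corn oil animals. The points of Ech1, Hadha, Hadhb, Acadm and Eci1 separate by group with phenolphthalein to the left, those of Fabp1 with phenolphthalein to the right, and the points of Acot1 spread over 3.57 log2 units without separating.

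The peroxisomal enzymes were then set against the mitochondrial beta-oxidation enzymes. The median log2 fold change was -0.26 over the 5 peroxisomal genes, of which 4 had a lower mean and all overlapped between the groups, and -0.10 over the 8 mitochondrial genes, of which 8 had a lower mean and 4 did not overlap, beside the same 48.2% and 11% of all tested genes. After a median shift, which raised the median over all tested genes from 0.01 to 0.09, 4 of these 8 were lower. The difference of the medians was -0.16 log2 units, and it was -0.065 with normexp and -0.076 with quantile normalization. By array, the median deviation of the peroxisomal genes minus that of the mitochondrial genes was 0.04, -0.10 and 0.06 on the phenolphthalein arrays, and 0.39, 0.05 and -0.25 on the corn oil arrays. The phenolphthalein values lay inside the range of the corn oil values, so a difference between the compartments by treatment could not be told from the spread between animals. The high corn oil value came from replicate 1. Without that array the difference was 0.04 log2 units and the peroxisomal median -0.03. Leaving out phenolphthalein replicate 2 gave a difference of -0.048 and a peroxisomal median of -0.15, and leaving out corn oil replicate 3 gave -0.34 and -0.43. The median gene of the peroxisomal group was Acot3. Without the thioesterases Acot3 and Acot4 the difference of medians was 0.005, and with the 4 entry genes added to the mitochondrial side it was -0.19. These last comparisons were chosen after the data were seen. The exact permutation test of 3 against 3 arrays cannot give a two-sided p under 0.1, so none was run on these medians.

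**Figure D3:**
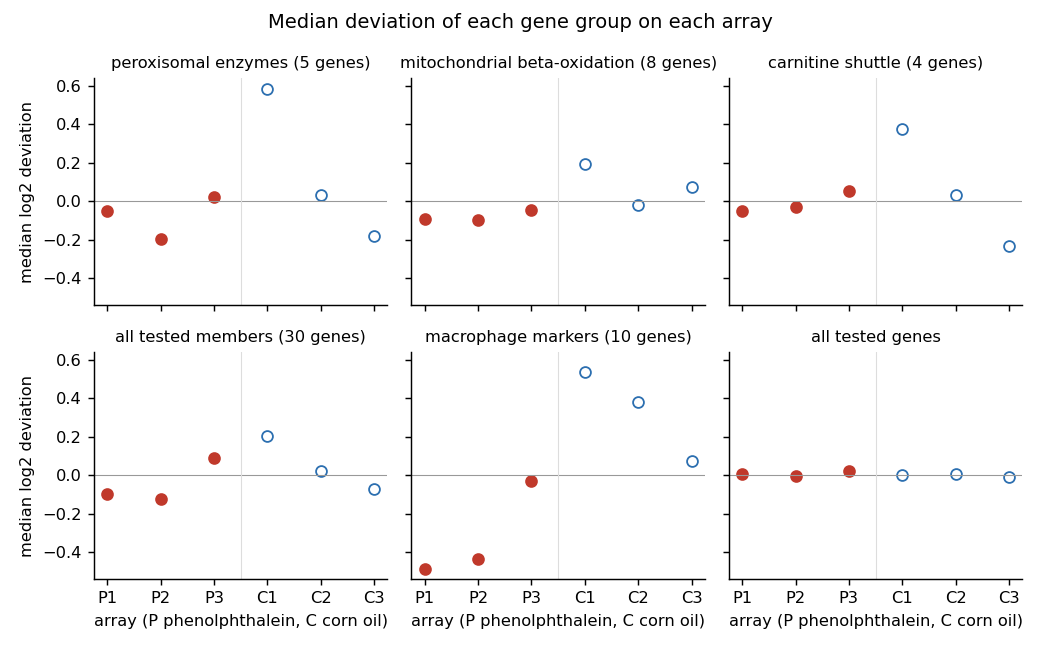
Median over each gene group of the log2 deviation from each gene's mean over the 6 arrays, for 3 phenolphthalein arrays (P1 to P3) and 3 corn oil arrays (C1 to C3). Corn oil replicate 1 is the high point of the peroxisomal group (0.58) and of the mitochondrial group (0.19), the macrophage markers are lowest on phenolphthalein replicates 1 and 2, and all tested genes stay between -0.01 and 0.02.

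The widest range in the set was that of Acot1, a member of the acyl-CoA thioesterases. These enzymes release free fatty acids from their CoA esters, and several are known PPAR-alpha targets in rodents. In mouse, Acot1 is the cytosolic, Acot2 the mitochondrial and Acot3, Acot4 and Acot5 the peroxisomal forms, and the peroxisomal grouping of Acot3 and Acot4 here follows mouse. In the RefSeq annotation of GRCr8 they lie close together on the plus strand of chromosome 6 in the order Acot2, Acot1, Acot4, Acot3 and Acot5, with Rpl23al8 between Acot1 and Acot4. Acot5 is no member of the set and was added after its values were seen. Their promoters, from 250 bases before to 50 bases after the annotated start, are shown because the genes moved together across animals. They are from RefSeq, GRCr8, plus strand, 5′ to 3′, at chr6:109342590-109342889 (Acot2), chr6:109367024-109367323 (Acot1), chr6:109399604-109399903 (Acot4), chr6:109413447-109413746 (Acot3) and chr6:109432812-109433111 (Acot5). Capitals mark AGGTCA, the core half-site of PPAR-alpha response elements, on either strand.
Acot2: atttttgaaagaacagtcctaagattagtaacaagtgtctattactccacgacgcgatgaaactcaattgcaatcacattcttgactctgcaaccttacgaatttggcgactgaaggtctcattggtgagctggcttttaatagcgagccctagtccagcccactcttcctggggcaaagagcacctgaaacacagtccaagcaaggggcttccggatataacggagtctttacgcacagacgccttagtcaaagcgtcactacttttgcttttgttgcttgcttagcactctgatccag
Acot1: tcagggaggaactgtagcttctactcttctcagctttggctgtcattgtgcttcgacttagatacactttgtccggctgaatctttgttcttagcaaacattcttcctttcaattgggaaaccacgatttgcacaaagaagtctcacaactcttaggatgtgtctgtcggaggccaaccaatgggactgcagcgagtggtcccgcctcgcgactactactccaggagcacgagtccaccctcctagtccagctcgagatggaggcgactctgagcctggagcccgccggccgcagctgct
Acot4: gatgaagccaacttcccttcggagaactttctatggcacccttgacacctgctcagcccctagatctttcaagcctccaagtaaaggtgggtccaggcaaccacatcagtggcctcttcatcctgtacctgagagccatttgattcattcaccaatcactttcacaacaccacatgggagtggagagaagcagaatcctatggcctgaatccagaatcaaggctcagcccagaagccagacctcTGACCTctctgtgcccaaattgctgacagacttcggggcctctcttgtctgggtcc
Acot3: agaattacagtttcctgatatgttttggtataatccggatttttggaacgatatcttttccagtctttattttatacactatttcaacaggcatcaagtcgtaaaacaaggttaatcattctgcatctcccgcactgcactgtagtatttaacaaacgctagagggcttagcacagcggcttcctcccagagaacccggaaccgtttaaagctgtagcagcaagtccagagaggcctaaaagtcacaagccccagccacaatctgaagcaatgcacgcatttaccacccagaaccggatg
Acot5: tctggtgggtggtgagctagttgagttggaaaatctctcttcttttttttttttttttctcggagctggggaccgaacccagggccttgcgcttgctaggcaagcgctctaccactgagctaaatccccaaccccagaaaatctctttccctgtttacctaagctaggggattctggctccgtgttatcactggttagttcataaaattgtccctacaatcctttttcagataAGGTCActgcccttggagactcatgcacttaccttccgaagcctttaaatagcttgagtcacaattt

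Acot1 spanned the widest range of the 30 tested genes. It read -1.15, -1.03 and 0.79 on the phenolphthalein arrays, against 2.42, 1.89 and -0.36 on the corn oil arrays. Corn oil replicates 1 and 2 were highest, phenolphthalein replicate 3 came next, above corn oil replicate 3, and phenolphthalein replicates 1 and 2 were lowest. The 6 arrays spanned 3.57 log2 units, an 11.9-fold range, and its SD within groups of 1.29 was above that of 99.0% of all tested genes. The log2 fold change was -1.78 ± 0.87 (SE, n = 3 per group), with a limma adjusted p of 0.39 and a 95% interval from -3.91 to 0.35.

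Acot2 read 3.53, 3.57 and 4.12 with phenolphthalein, against 4.61, 4.52 and 3.78 with corn oil, and the 6 animals fell in the same order as for Acot1. Its dimmer probe had a log2 fold change of -0.66, against -0.56 for the brighter one. Acot4 read 4.25, 3.92 and 5.12 with phenolphthalein, against 5.47, 5.33 and 4.30 with corn oil. Its 3 probes had log2 fold changes from -0.70 to -0.60 and spanned 1.53 to 1.58 units over the arrays. Acot3 read 0.34, 0.03 and 0.41 with phenolphthalein, against 0.98, 0.41 and 0.18 with corn oil, with a narrower span of 0.94 units. Its log2 fold change of -0.26 was -0.034 when corn oil replicate 1 was left out, and that of Acot4 ran from -0.97 to -0.35 without 1 array. For all 4 members the groups overlapped, and the limma adjusted p was 0.387 for Acot2, 0.535 for Acot4 and 0.612 for Acot3.

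The brightest of the 3 probes of Acot5 read 3.48, 2.95 and 4.79 with phenolphthalein, against 5.30, 5.35 and 2.41 with corn oil, a span of 2.94 units. Phenolphthalein replicate 3 and corn oil replicates 1 and 2 were again the high animals, and corn oil replicate 3 was the lowest of all. The log2 fold change was -0.61 with a limma adjusted p of 0.78. The gene on the other side of Acot2, Riox1, a histone and ribosomal protein hydroxylase, read -0.01, 0.20 and 0.09 with phenolphthalein, against 0.06, -0.17 and -0.20 with corn oil, and spanned 0.39 units. The groups therefore overlapped for the thioesterases: phenolphthalein replicate 3 lay above corn oil replicate 3 for Acot1, Acot2, Acot3, Acot4 and Acot5 alike. Corn oil replicates 1 and 2 lay above phenolphthalein replicates 1 and 2, and each of these genes had a lower mean with phenolphthalein.

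The thioesterases are close paralogs and the sequences of the array probes were not used here, so signal shared between genes was not tested. Macrophage markers, which also stand for the Kupffer cells of the liver sinusoids, ran partly alike: their summed linear signal was 137, 137 and 179 on the phenolphthalein arrays, against 263, 231 and 184 on the corn oil arrays. Their median deviations were -0.48, -0.43 and -0.03 log2 units with phenolphthalein, against 0.53, 0.38 and 0.08 with corn oil. At an unadjusted p under 0.05 in limma, 9 of these 10 markers were lower with phenolphthalein, beside 8.11% of all tested genes. The phenolphthalein arrays lay apart and lower for 7 of the 10, beside 11% of all tested genes. Marco, Cd163 and Csf1r were all well above background on every array. By their sum and median, corn oil replicate 3 stood slightly above phenolphthalein replicate 3 for the markers. For Cd5l, Vsig4 and C1qb it stood below, as it did for Acot1, Acot2, Acot3, Acot4 and Acot5. The part of macrophages in the thioesterase values was not tested.

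**Figure D4:**
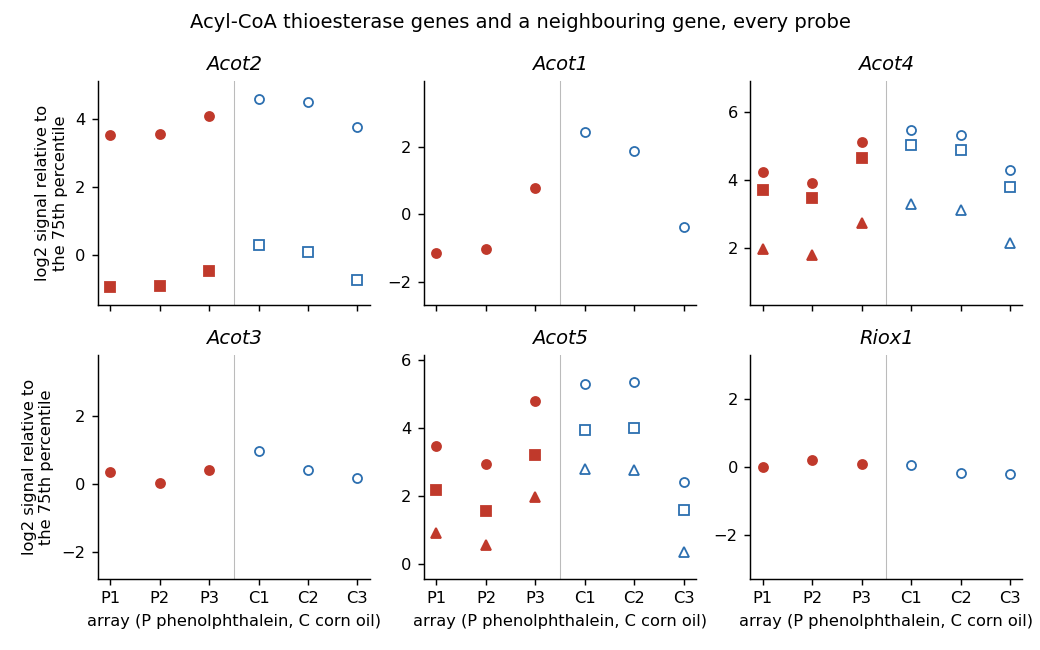
Log2 signal of every probe of Acot2, Acot1, Acot4, Acot3, Acot5 and the neighbouring gene Riox1 on 3 phenolphthalein arrays (P1 to P3) and 3 corn oil arrays (C1 to C3), with 1 marker shape per probe and a y-axis of the same height in every panel but its own offset. All probes of Acot1, Acot2, Acot4 and Acot5 are higher on P3, C1 and C2 than on P1, P2 and C3. On the dimmer Acot2 probe P3 (-0.47) lies nearer C3 (-0.73) than C2 (0.08). Riox1 spans 0.39 units.

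Among genes of uptake, binding and storage, Fabp1, the abundant liver fatty acid-binding protein, was the only member whose phenolphthalein arrays all lay above its corn oil arrays. It read 9.96, 9.93 and 10.02 with phenolphthalein, against 9.92, 9.71 and 9.89 with corn oil. The gap between the groups was smaller than the spread within either group, and the log2 fold change was 0.13 ± 0.09 (SE, n = 3 per group), with a limma adjusted p of 0.522. On the other Fabp1 probe the groups overlapped, with a log2 fold change of 0.11. Cd36, a fatty acid translocase, read 2.32, 2.51 and 3.39 with phenolphthalein, against 2.47, 2.76 and 2.61 with corn oil. Phenolphthalein replicate 3 was high on all 3 Cd36 probes, and without that array the log2 fold change was -0.19 in place of 0.13. Plin2, which coats lipid droplets, read 6.08, 5.91 and 6.02 with phenolphthalein, against 6.47, 6.26 and 5.79 with corn oil, a log2 fold change of -0.17 ± 0.18 (SE) that ran from -0.36 to -0.017 without 1 array. Aqp7, a glycerol channel, was dim, with a difference of 0.32 ± 0.29 log2 units (SE).

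Fabp1 was also the only member with a near match to the direct repeat that PPAR-alpha dimers bind, and its promoter is shown for that reason. It is from RefSeq, GRCr8, plus strand, 5′ to 3′, at chr4:104749090-104749389, with the match in capitals.
Fabp1: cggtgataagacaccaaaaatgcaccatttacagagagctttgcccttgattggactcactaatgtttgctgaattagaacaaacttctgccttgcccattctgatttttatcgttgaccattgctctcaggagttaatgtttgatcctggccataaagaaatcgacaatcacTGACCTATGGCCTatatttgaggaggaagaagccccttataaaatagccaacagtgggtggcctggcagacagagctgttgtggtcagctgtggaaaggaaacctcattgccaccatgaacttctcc
The match, from base -77 to base -65 relative to the annotated start, is the reverse complement of AGGNCANAGGNCA, and its outer part also holds AGGTCA. Of the 31 members, 25 had a RefSeq promoter entry. On either strand AGGNCANAGGNCA was in 1 of these 25 (4%) and in 0.415% of all 33469 rat promoters of that length, and AGGTCANAGGTCA in 0 of 25 and 0.0538% of all. The half-site AGGTCA was in 7 of the 25 (28%), namely Acadvl, Acot4, Creb3l3, Eci1, Fabp1, Hadhb and Ucp3, and in 16.2% of all. In Acot4 it lay from base -6 to base -1, on the minus strand, and in Acot5 from base -17 to base -12. A match describes the letters in this window and says nothing of binding.

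Of the regulators and secreted products, Pdk4, Fgf21 and Angptl4 varied widely between animals, and none separated by group on the probe that stood for its gene. Pdk4, the kinase that shuts down pyruvate dehydrogenase in fasting, read -0.90, -0.28 and -0.04 with phenolphthalein, against 0.16, -1.54 and -0.86 with corn oil, a log2 fold change of 0.34 ± 0.46 (SE). Fgf21, the fasting hormone of the liver, read 0.32, -0.38 and 1.58 with phenolphthalein, against 0.79, 1.07 and 0.46 with corn oil, a log2 fold change of -0.27 ± 0.50 (SE). Both genes held their extremes within 1 group: the highest and lowest Fgf21 were phenolphthalein animals, and the highest and lowest Pdk4 were corn oil animals. Angptl4, a secreted inhibitor of lipoprotein lipase, read 5.32, 5.40 and 5.88 with phenolphthalein, against 6.29, 5.46 and 5.61 with corn oil, a log2 fold change of -0.25 ± 0.26 (SE). It was -0.0018 when corn oil replicate 1 was left out. Creb3l3, the hepatocyte transcription factor that works with PPAR-alpha on Fgf21, read 7.58, 7.39 and 7.67 with phenolphthalein, against 7.47, 7.17 and 7.31 with corn oil, a log2 fold change of 0.23 ± 0.12 (SE) with a limma adjusted p of 0.413. Its dimmer probe differed by 0.01 log2 units. Vnn1, a pantetheinase, differed by -0.14 ± 0.17 log2 units (SE), or -0.30 to -0.028 without 1 array, and Pex11a, a peroxisome proliferation factor, by -0.12 ± 0.12. All 3 probes of Pex11a were lower with phenolphthalein, by 0.12 to 0.28 log2 units. The groups did not overlap on its probe of middle brightness (1.60, 1.55 and 1.62, against 1.79, 1.67 and 1.82 with corn oil).

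Probe by probe, 36 of the 48 tested probes had a lower mean and 12 a higher one with phenolphthalein, beside 46.6% of all 39411 tested probes lower. None was called in limma, where 0.0482% of all probes were called, 0.0457% higher and 0.00254% lower. At an unadjusted p under 0.05 there were 2 lower (Ech1 and Eci1) and 0 higher, against 6.37% and 6.84% of all probes. Groups did not overlap for 7 probes lower and 1 higher, where 9.24% and 11.8% of all probes did so, and these added a probe each of Acaa1b and Pex11a to the genes named above. Of the 12 genes with over 1 tested probe, 8 had probes alike in sign, and Acaa1a, Acadvl, Cd36 and Hadha did not.

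Other genes of the same pathways, from lists that do not share members with the set, showed no called gene either. At an unadjusted p under 0.05 in limma, 7.16% of all tested genes were higher and 8.11% lower. Of 28 tested genes of peroxisomal fatty acid metabolism, 3 were higher and 1 lower at an unadjusted p under 0.05, with a median log2 fold change of 0.04. Pecr, the peroxisomal trans-2-enoyl-CoA reductase, read 6.19, 6.19 and 6.21 with phenolphthalein, against 5.90, 5.92 and 5.87 with corn oil, a log2 fold change of 0.30 ± 0.07 (SE) with a limma adjusted p of 0.172. Scp2, which holds a thiolase and a sterol carrier, had one of 0.19 ± 0.08 (SE). Of 24 tested genes of mitochondrial fatty acid and ketone metabolism, 3 were higher and 2 lower at that level, with a median of 0.02. Acad9, an acyl-CoA dehydrogenase that also helps assemble respiratory complex I, had a log2 fold change of 0.26 ± 0.07 (SE). It was -0.69 ± 0.21 (SE) for Ucp2, a mitochondrial carrier that macrophages also express, and -0.33 ± 0.10 for Oxct1, the ketone-using transferase that hepatocytes hardly express.

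Of 39 tested further PPAR-alpha targets and partners, 3 were higher and 3 lower at an unadjusted p under 0.05, with a median of -0.11. Over all tested genes 7.16% were higher and 8.11% lower at that level. Fitm2, which helps form lipid droplets, read 4.93, 4.92 and 4.85 with phenolphthalein, against 4.42, 4.36 and 4.23 with corn oil. The animals of each group lay close together and well apart from the other group, with a log2 fold change of 0.56 ± 0.08 (SE, n = 3 per group) and a limma adjusted p of 0.116. Fabp3, the fatty acid-binding protein of heart and muscle, differed by -0.90 ± 0.23 log2 units (SE; limma adjusted p = 0.211) and Fabp2, the intestinal form, by -0.32 ± 0.10 (limma adjusted p = 0.243).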

How the data were processed

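Per the labels' protocols, Cy3-labelled cRNA of each animal's liver was measured on a single-colour Agilent array. The submitters' processing notes name Agilent Feature Extraction 10.7 for the spot intensity, and the file headers give its build as 10.7.1.1. Per the file headers, the deposited processed intensity is background-subtracted and not scaled between arrays. A second deposited table was found to equal that intensity over a constant for each array, and served as an alternative.

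The main values were log2 of the deposited processed signal minus the array's 75th percentile over spots other than controls. Outlier-marked spots (4 to 14 per array) were set missing, and no spot was saturated. Between 62.1% and 65.1% of probes were well above background per array, and probes so on at least 3 of 6 arrays were kept. No member probe lay in the 2 array columns with many dim spots. Accessions were matched without version to a RefSeq table of GRCr8, used for names, gene order and promoters, while the array design was annotated on rn4 per the file headers. The probe with the highest mean over the 6 arrays stood for its gene.

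Genes were tested with lmFit and eBayes of limma 3.58.1 under R 4.3.3 (with data.table, version 1.17.8), phenolphthalein minus corn oil, with Benjamini-Hochberg adjustment at 0.05 over 11434 genes, and in the same way over 39411 probes. The procedure was tested on simulated data. The number of arrays limits the precision, and the labels name 3 animals per group. The members and all gene lists were chosen with earlier results of these data known. All members are named; from each further pathway list the 3 genes with the smallest unadjusted p are named, except 1 gene that is not reported here; Acot5 and Riox1 were chosen after their values were seen. Alternatives were another background correction, 2 other scalings, 2 other filters on dim probes, the mean of a gene's probes, marked spots kept, the deposited value table, dim array columns masked, a trended robust prior, leaving out single arrays, and a block on the replicate number.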

Additional observations from a re-analysis of the deposited data

How the results depend on the processing

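None of the members or their probes was called under any of the 17 alternatives of the gene fit or those run on the probes. Over all genes 7 were called, 6 to 10 under the other settings of scaling, filter, probe choice and prior, 0 with the replicate block, and 0 to 6 without 1 array (0 without phenolphthalein replicate 1, corn oil replicate 1 or corn oil replicate 3, 1 without phenolphthalein replicate 2 or corn oil replicate 2, 6 without phenolphthalein replicate 3). The replicate block changed no other call, and the numbers did not pair the animals, since deviations of same-numbered animals from their group means correlated at -0.02, 0.02 and -0.003 over genes. The median of the mitochondrial enzymes was -0.19 with quantile normalization, -0.024 with a median shift and -0.18 to -0.073 without 1 array. Of 510 member values in the alternatives 29 had the sign turned, over 13 members, and 17 members kept theirs (14 lower, 3 higher). The median shift moves all genes of an array by the same amount, and it raised the median over all tested genes from 0.01 to 0.09. The cause of the other sign changes was not tested. With normexp the log2 fold change was 0.027 for Acaa1b, 0.0085 for Acaa2, 0.13 for Slc25a20, 0.016 for Cpt2 and 0.0083 for Pex11a. With a median shift it was 0.074 for Acadvl, 0.022 for Acadl, 0.0030 for Acaa2, 0.046 for Decr1, 0.072 for Slc25a20 and 0.051 for Cpt2. Acaa1a had -0.011 with quantile normalization and -0.054 with the mean of its probes. Without 1 array at a time the log2 fold change ran from -0.027 to 0.025 for Acadvl, -0.096 to 0.029 for Decr1, -0.095 to 0.40 for Cpt1a, -0.036 to 0.011 for Slc25a20, -0.098 to 0.036 for Cpt2, -0.19 to 0.34 for Cd36, -0.057 to 0.79 for Pdk4 and -0.80 to 0.18 for Fgf21. With 3 animals per group on separate slides, the half-width of a gene's interval limits what could be detected, and slide and treatment cannot be told apart.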
